A study of Mus musculus with 9 samples.

Results

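The families examined were the genes of the core spliceosome and of the proteins that steer it, taken as every symbol of the deposited expression table that starts with Srsf, Hnrnp, Sf3a, Sf3b, Snrp or Prpf. There were 66 such genes among the 25239 symbols of the table: 11 Srsf, 21 Hnrnp, 3 Sf3a, 6 Sf3b, 12 Snrp and 13 Prpf genes. They were measured by RNA sequencing in bulk primary astrocyte cultures, glial cells grown from the cerebral cortex of mouse pups at postnatal day 4 (P4). In the day 1 group, cultures were exposed to 200 µM hydrogen peroxide (H2O2) for 3 h, washed, and harvested 24 h later. In the day 3 group, the same exposure was followed by harvest at 72 h. The control group was untreated, and the labels give no harvest time for it. Differences that go with exposure and with time in culture therefore cannot be told apart. Each group has 3 libraries, 9 in all. The labels give no strain or sex, and no source says whether the 3 libraries of a group are separate cultures; p-values therefore speak of the variation among these libraries, and that variation may be technical.

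Splicing removes introns in a series of steps carried out by small nuclear ribonucleoproteins (snRNPs), particles made of a short RNA and proteins. The Snrp genes encode the Sm proteins, which form a ring on the snRNAs, and proteins particular to the U1 and U2 particles. The Sf3a and Sf3b genes encode the U2 subcomplexes that settle on the branch point, and most Prpf genes encode proteins of the U1, U4/U6 and U5 particles or of the complex that activates the spliceosome. SR proteins (Srsf) mostly bind exonic enhancers and recruit the machinery, while hnRNP proteins (Hnrnp) coat nascent transcripts and often oppose SR proteins. Many Srsf genes limit their own output through transcript forms that are degraded by nonsense-mediated decay.

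Levels are FPKM, fragments scaled by gene length and by library total, so levels of different genes are compared per length. The libraries held 23032594 to 38414668 reads, with a share of 7.67% to 11.9% for Rn45s, the ribosomal precursor. Summed levels of 8 astrocyte markers were 1766 to 1992 FPKM on day 1, 2076 to 2102 on day 3 and 2268 to 2319 in control, and no marker was at 0. Of these 8, 2 were called higher and 5 lower on day 1, when 31.1% of all genes were called each way. Markers of other cells moved with the groups as well. Microglia markers summed to 84.5 to 89.9 FPKM on day 1, 175 to 227 on day 3 and 217 to 235 in control, with 8 of 9 tested lower on day 1. Oligodendrocyte lineage markers summed to 434 to 468 FPKM on day 1, 556 to 588 on day 3 and 659 to 690 in control, with 10 of 11 lower on day 1. Fibroblast and mural markers summed to 2038 to 2175 FPKM on day 1, against 916 to 982 in control, with 4 of 7 tested higher and 2 lower on day 1. Ependymal markers summed to 67.4 to 75.8 FPKM on day 1, 104 to 120 on day 3 and 115 to 126 in control, with 3 of 3 tested lower on day 1. The 9 neuron markers summed to 113.2 to 115.8 FPKM on day 1, 114.9 to 115.4 on day 3 and 107.9 to 109.5 in control. Of these, Rbfox3, Snap25, Syt1, Gad1 and Slc17a7 had means under 1 FPKM and were not tested. The sum thus rests mainly on Tubb3, Map2, Stmn2 and Syp. Of these 4, 3 were higher and 1 lower on day 1. The 7 proliferation genes summed to 76.1 to 78.6 FPKM on day 3, against 94.9 to 103 in control. All 7 were lower on day 3, beside 6.45% of all genes, and 3 were higher and 4 lower on day 1. No list had a marker at 0 in all 9 libraries. Their part in the results below was not tested. In bulk cultures, fewer cells of a type and less RNA per cell cannot be told apart.

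The splicing genes were well expressed and tightly measured. The 63 that reached a mean of 1 FPKM had a median level of 30.1 FPKM, against 9.68 FPKM over all 12611 genes that reached it, and a median coefficient of variation within groups of 2.94%, against 3.82%. Together the members took 0.691% to 0.708% of reads on day 1, 0.667% to 0.677% on day 3 and 0.691% to 0.709% in control. The highest was Hnrnpa2b1, whose product binds RNA in the nucleus and in transport granules, with a mean of 180.1 FPKM over the 9 libraries. Hnrnpk was also above 100 FPKM in every library, as was Srsf5. Within families, the top gene exceeded the lowest tested one 50.6-fold in Hnrnp, 23.4-fold in Srsf, 9.59-fold in Prpf, 6.78-fold in Snrp, 3.14-fold in Sf3b and 1.19-fold in Sf3a. The 3 SF3a subunits, which assemble into a single heterotrimer, thus lay close together, at means of 17.7 FPKM (Sf3a2), 19.1 FPKM (Sf3a1) and 21.1 FPKM (Sf3a3).

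The other 3 members did not reach a mean of 1 FPKM and were not tested. Srsf12, an SR-like protein, had 0.818, 0.980 and 0.758 FPKM on day 1, 0.779, 0.702 and 0.812 FPKM on day 3, and 0.692, 0.777 and 0.685 FPKM in control. Snrpn, the imprinted SmN gene that is high in neurons, stayed between 0.00799 and 0.0572 FPKM, and Snurf, which shares its transcription unit, was listed at 0. Exons of Snrpn and Snurf overlap on the same strand. The sources used here do not give how reads that fit both genes were counted, so the levels of both are uncertain. The pseudogene Hnrnpa1l2-ps2 was at 0 in 5 of the 9 libraries and reached 0.0843 FPKM at most. Hnrnpa1 itself, usually an abundant hnRNP, had a mean of only 3.72 ± 0.251 FPKM on day 1, 3.41 ± 0.113 FPKM on day 3 and 3.56 ± 0.0413 FPKM in control (SD, n = 3 each). This gene has many processed copies in the genome, and the sources used here do not give how reads matching several places were counted, so its level and that of Hnrnpa3 are uncertain. Other members were not searched for such copies, and the same limit holds for any that have them. Exons of 13 members overlap those of another gene of the table, and the partners with a mean above 10 FPKM are given beside the genes concerned. Some members overlap genes whose symbols were not found in the table, among them Hnrnpm with March2 on the same strand. The levels of those partners are not known here.

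**Figure D1:**
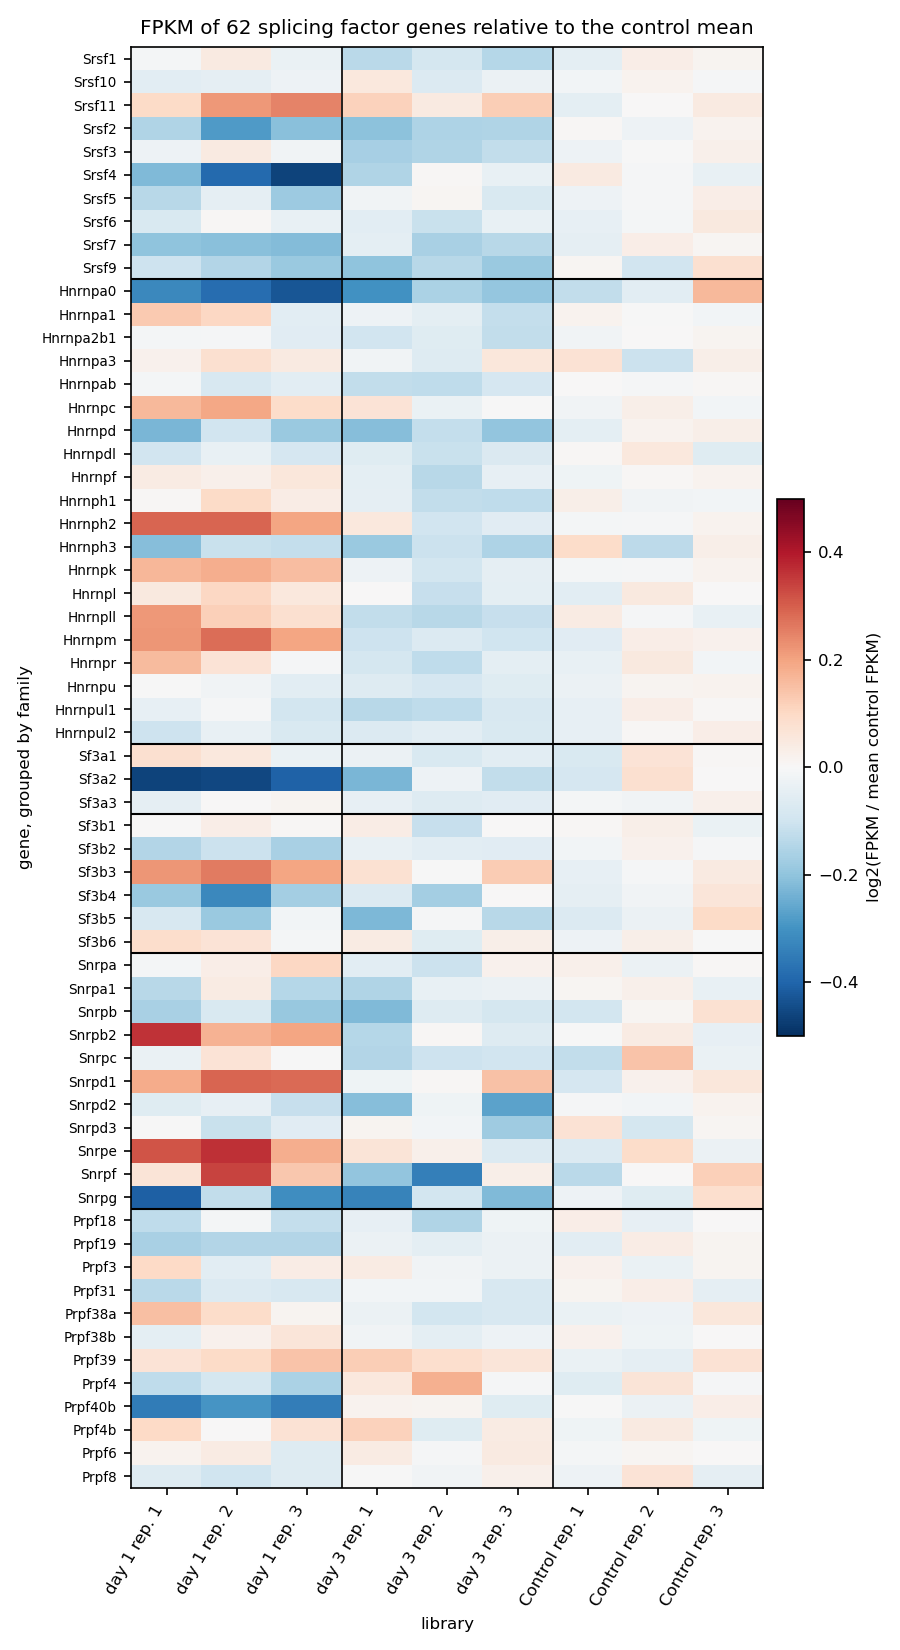
Heat map of 62 tested splicing genes (rows, grouped by family, with black lines between families) in the 9 libraries (columns, day 1, day 3 and control from left to right); colour is log2 of the deposited FPKM over the control mean, from blue (-0.5) to red (0.5). The red and blue day 1 rows stand side by side within every family except Sf3a, where the single strong row is blue (Sf3a2), and most Hnrnp rows are pale or light blue on day 3.

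Promoters of 58 of the 66 members were found by symbol in the RefSeq table (build GRCm38.p6, 250 bases before to 50 after the start), and 9 motifs were searched there on both strands. For a gene with several listed starts, such as Hnrnph1 with 5, only the first was searched, so the counts below are of 1 start per gene. The ETS core CCGGAAG was in 19 of the 58 (32.8%), against 18.5% of the 9950 promoters of tested genes and 9.12% of 27025 promoters of all genes. It was in all 3 Sf3a promoters, 3 of 4 Sf3b, 4 of 10 Snrp, 4 of 11 Srsf, 3 of 11 Prpf and 2 of 19 Hnrnp promoters. The CCAAT box (CCAAT) was in 29 of 58, against 39.1% of promoters of tested genes and 37.9% of all, with 13 of 19 in Hnrnp and 0 of 3 in Sf3a. The NRF1 motif was in 15.5% of the members' promoters, 10.9% of those of tested genes and 4.78% of all. For the others, the shares of the members, of tested genes and of all promoters were 12.1%, 6.73% and 14.2% for the TATA box (TATAAA), 13.8%, 10.3% and 7.24% for the E-box (CACGTG), 3.45%, 3.3% and 1.88% for the cyclic AMP response element (TGACGTCA), 5.17%, 4.56% and 7.93% for the AP-1 motif (TGANTCA), 8.62%, 5.59% and 7.95% for the heat shock motif (GAANNTTC), and 1.72%, 1.09% and 0.496% for the BANP motif. A match is a description of letters and not of binding. The 150 bases before the start are printed for the 3 Sf3a genes and for 3 Snrp genes, of which Snrpe and Snrpb2 were higher and Snrpg was lower on day 1. A link between motifs and changes was not tested. The stretches lie at chr11:4160204-4160353 (Sf3a1), chr10:80798585-80798734 (Sf3a2), chr4:124714711-124714860 (Sf3a3), chr2:143062919-143063068 (Snrpb2) and chr6:86371390-86371539 (Snrpg) on the plus strand. That of Snrpe lies at chr1:133610281-133610430 on the minus strand. Capitals mark the ETS core, the CCAAT box, the NRF1 motif and the cyclic AMP response element on either strand. No motifs overlap in these stretches, and that of Snrpe holds none of the marked ones.
Sf3a1: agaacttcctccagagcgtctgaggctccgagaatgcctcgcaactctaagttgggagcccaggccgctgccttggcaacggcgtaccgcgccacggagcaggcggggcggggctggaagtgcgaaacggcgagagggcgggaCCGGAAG
Sf3a2: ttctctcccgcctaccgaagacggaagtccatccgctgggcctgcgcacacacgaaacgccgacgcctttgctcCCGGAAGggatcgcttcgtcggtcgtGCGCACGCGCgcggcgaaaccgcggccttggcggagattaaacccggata
Sf3a3: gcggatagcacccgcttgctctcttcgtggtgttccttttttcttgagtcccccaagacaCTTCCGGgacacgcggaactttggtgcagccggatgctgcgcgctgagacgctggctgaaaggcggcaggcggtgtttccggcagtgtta
Snrpe: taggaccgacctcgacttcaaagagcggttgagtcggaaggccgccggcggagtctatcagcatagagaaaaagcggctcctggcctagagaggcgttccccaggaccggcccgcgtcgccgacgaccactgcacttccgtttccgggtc
Snrpb2: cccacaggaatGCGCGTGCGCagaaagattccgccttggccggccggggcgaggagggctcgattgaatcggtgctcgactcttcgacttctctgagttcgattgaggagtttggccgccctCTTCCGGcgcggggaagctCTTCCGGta
Snrpg: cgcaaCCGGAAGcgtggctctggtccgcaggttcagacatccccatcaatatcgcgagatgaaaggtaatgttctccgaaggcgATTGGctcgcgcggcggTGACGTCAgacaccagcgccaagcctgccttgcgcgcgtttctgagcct

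On day 1 the splicing families moved in both directions and by small amounts. Of the 63 members tested, 17 rose and 12 fell against control, and 34 did not pass the test (limma on log2(FPKM + 0.1) after rescaling between libraries, Benjamini-Hochberg adjusted p under 0.05 over all genes tested). The members called were 46.0% of those tested, whereas 62.2% of all 12611 genes were called, 31.1% higher and 31.1% lower. The largest fall was that of Sf3a2 (log2 fold change -0.40), and Snrpe was among the strongest rises (0.32). No member moved by more than 0.5 on the log2 scale, a size that 1792 genes (14.2%) passed, and the median absolute change was 0.0892 for the members, against 0.19 for all genes. In 31 members (49.2%) the libraries of the day 1 and control groups did not overlap, as in 67.2% of all genes. The balance moved with the scaling. Without rescaling 11 members were higher and 15 lower, and with quantile normalization 13 were higher and 20 lower. Under each of the alternatives tried, 10 of the rises and 9 of the falls passed. The results below are ordered by the role of the products.

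Among the Sm ring genes, Snrpd1 and Snrpe rose and Snrpg fell. Snrpe (chr1:133603871-133610280) had 53.1, 55.0 and 48.5 FPKM on day 1, against 40.8, 45.6 and 41.8 FPKM in control. All 3 day 1 libraries lay above all control libraries, a 1.25-fold rise (95% interval 1.16 to 1.35, adjusted p = 0.000257 by limma). Snrpd1 had 31.9, 34.2 and 34.0 FPKM on day 1, against 26.4, 28.4 and 29.1 FPKM in control, again without overlap, and was 1.22-fold higher (1.13 to 1.31, adjusted p = 0.000377). Snrpg went the other way, with 28.2, 34.4 and 30.2 FPKM on day 1, against 36.7, 35.8 and 39.7 FPKM in control. Its 1.19-fold fall (1.05 to 1.34, adjusted p = 0.0172) missed the threshold without control library 3 (adjusted p = 0.0626) or day 1 library 1 (0.0719). Snrpf, with 13.1 ± 1.31 FPKM on day 1 and 11.5 ± 1.01 FPKM in control, did not pass (adjusted p = 0.0633), and neither did Snrpb, Snrpd2 and Snrpd3, with log2 changes of -0.11, -0.04 and -0.02. Snrpf and Snrpb lay near the threshold: Snrpf passed as higher in 8 of 20 alternatives, among them the fit of the 6 libraries alone (adjusted p = 0.0322), and Snrpb as lower in 7, among them quantile normalization (adjusted p = 0.0129).

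Of the Snrp proteins particular to one particle, only the U2 gene Snrpb2 was called on day 1. Snrpb2, whose product binds a stem loop of U2 snRNA together with the Snrpa1 protein, had 24.6, 21.6 and 21.96 FPKM on day 1, against 19.1, 19.7 and 18.6 FPKM in control. All day 1 libraries were above control, by 1.21-fold (1.11 to 1.32, adjusted p = 0.0015). Its partner Snrpa1 had 14.5 ± 1.09 FPKM on day 1 and 15.3 ± 0.346 FPKM in control (log2 change -0.05, adjusted p = 0.441). The U1 genes Snrpa and Snrpc had log2 changes of 0.07 and 0.05, with adjusted p of 0.143 and 0.448.

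Of the 3 SF3a and 6 SF3b genes of the U2 subcomplexes, 2 rose and 3 fell, beside 31.1% of all genes each way. Sf3a2 (chr10:80798735-80804922, GRCm38.p6), the counterpart of the yeast splicing factor Prp11, had 14.5, 14.6 and 15.2 FPKM on day 1, against 18.9, 21.2 and 20.1 FPKM in control, with no overlap. Its 1.32-fold fall (1.21 to 1.44, adjusted p = 0.000108) was the largest of the 63 on the log2 scale, while its 2 partners Sf3a1 and Sf3a3 differed by 0.07 and 0.02 (adjusted p = 0.127 and 0.536). Exons of Sf3a2 overlap those of Plekhj1 on the opposite strand, a gene with a mean of 22.7 FPKM, and the sources used here do not give whether counting used strand, so the reads of the 2 genes may not be fully separated. In SF3b, Sf3b3, a large scaffold subunit, had 28.5, 29.3 and 28.02 FPKM on day 1, against 23.8, 24.4 and 25.2 FPKM in control, a 1.19-fold rise (1.14 to 1.25, adjusted p = 4.05e-05). Its exons overlap those of Cog4 on the opposite strand (mean 20.6 FPKM), with the same uncertainty. Sf3b4, a subunit that contacts RNA near the branch point, fell 1.14-fold, with 22.4, 20.4 and 22.7 FPKM on day 1, against 24.7, 25.2 and 26.6 FPKM in control (adjusted p = 0.00791). Sf3b2, the partner that Sf3b4 binds directly, fell 1.08-fold, with 71.0 ± 1.47 FPKM on day 1 and 78.1 ± 1.03 FPKM in control (adjusted p = 0.00182). Sf3b1, the subunit that closes around the branch point and is often mutated in human blood disorders, had 39.9 ± 0.444 FPKM on day 1 and 39.5 ± 0.867 FPKM in control (adjusted p = 0.27, 95% interval of the fold 0.979 to 1.09). Sf3b6, which touches the branch point adenosine, rose 1.06-fold (adjusted p = 0.0357), a call that 10 of 20 alternatives kept, and Sf3b5, a small subunit, had 41.1 ± 2.45 FPKM on day 1 and 43.9 ± 2.67 FPKM in control (adjusted p = 0.455).

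In the Prpf family 3 of 13 genes rose and 2 fell on day 1, beside 31.1% of all genes each way. The rises numbered 1 without control library 1, without control library 2 and without rescaling. Prpf40b (chr15:99295076-99317018, GRCm38.p6), a relative of the yeast U1 protein Prp40, had 8.80, 9.14 and 8.83 FPKM on day 1, against 11.2, 11 and 11.5 FPKM in control. The groups did not overlap, and Prpf40b was 1.23-fold lower (1.16 to 1.3, adjusted p = 5.67e-05). Prpf19, the ubiquitin ligase that gives its name to the activating complex, fell 1.09-fold, with 21.4, 21.6 and 21.6 FPKM on day 1, against 23.1, 24.5 and 24.2 FPKM in control (adjusted p = 0.00264). Prpf38a, needed for spliceosome activation, and Prpf39, another relative of a yeast U1 protein, rose by 0.12 and 0.13 on the log2 scale (adjusted p = 0.0217 and 0.0207), calls kept by 13 and 14 of 20 alternatives. Prpf39 overlaps exons of Fkbp3 on the opposite strand (mean 45.4 FPKM). Genes for the catalytic and tri-snRNP proteins did not pass: Prpf8, whose product sits at the active site, differed by -0.04, Prpf31 by -0.06, Prpf3 by 0.06, Prpf4 by -0.09 and Prpf6 by 0.03 on the log2 scale, with adjusted p from 0.202 to 0.344. Prpf18, Prpf38b and the kinase gene Prpf4b did not pass either (adjusted p = 0.303, 0.315 and 0.0903).

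**Figure D2:**
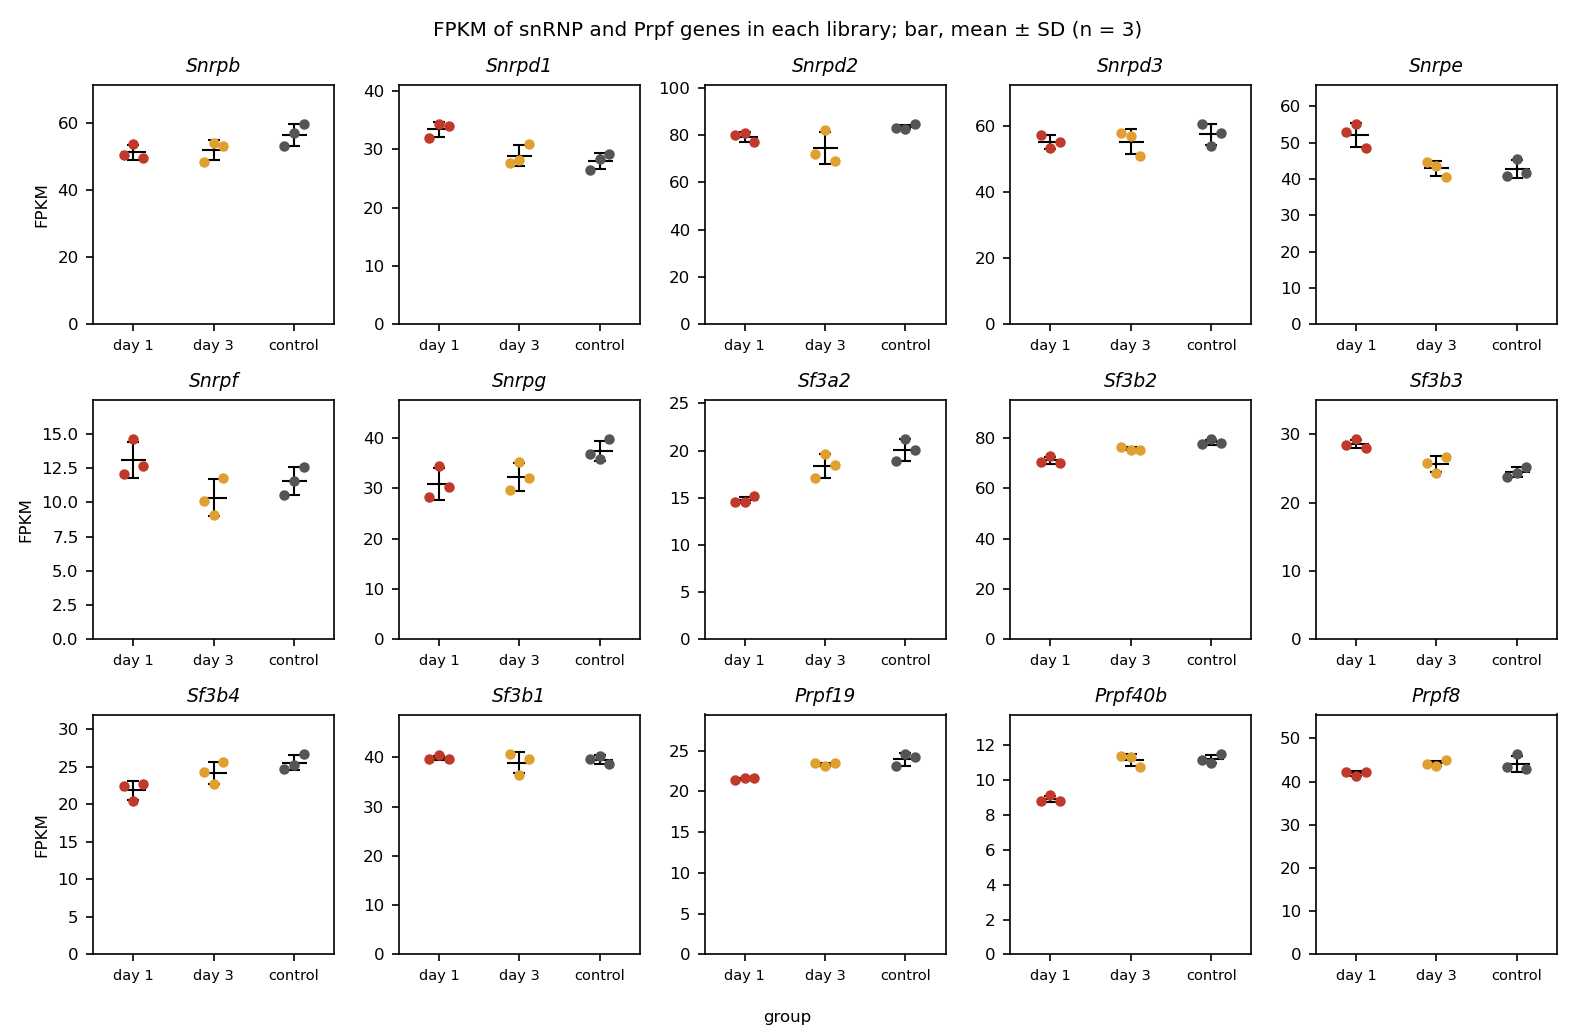
FPKM of 15 genes of the Snrp, Sf3a, Sf3b and Prpf families in each library of the day 1, day 3 and control groups (points), with the group mean and SD (bars, n = 3) and each vertical axis starting at 0. Day 1 points stand above the control points for Snrpd1, Snrpe and Sf3b3 and below them for Snrpg, Sf3a2, Sf3b2, Sf3b4, Prpf19 and Prpf40b, while Sf3b1 stays near 40 FPKM in all groups.

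In the SR family 1 of 10 tested genes rose and 4 fell on day 1, beside 31.1% of all genes each way. Srsf11, an SR-related protein that interacts with the U2AF factor, had 26.9, 29.2 and 29.9 FPKM on day 1, against 24.3, 25.3 and 25.99 FPKM in control, and was 1.16-fold higher (1.09 to 1.24, adjusted p = 0.000898). Srsf4 was the lowest SR gene tested and fell the most, with 4.57, 4.07 and 3.87 FPKM on day 1, against 5.495, 5.30 and 5.19 FPKM in control, a 1.25-fold fall (1.12 to 1.39, adjusted p = 0.00215). Srsf2, a factor concentrated in nuclear speckles, had 60.4, 55.1 and 57.9 FPKM on day 1, against 67.3, 65.9 and 67.8 FPKM in control, and fell 1.13-fold (1.07 to 1.2, adjusted p = 0.00195). Its exons overlap those of Mettl23 and Mfsd11 on the opposite strand, at means of 10.3 and 14.2 FPKM. Srsf7, which also takes part in mRNA export, fell by the same factor, with 18.7 ± 0.102 FPKM on day 1 and 21.6 ± 0.611 FPKM in control (adjusted p = 0.000663). Srsf5 fell 1.06-fold (adjusted p = 0.047), a call kept by 11 of 20 alternatives. The founding member Srsf1 and its relatives Srsf3, Srsf6 and Srsf10 had log2 changes between -0.01 and 0.03, with adjusted p from 0.304 to 0.92, and Srsf9 had a change of -0.11 that just missed the threshold (adjusted p = 0.0513).

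The hnRNP family had 8 rises and 2 falls among 20 tested, where 31.1% of all genes rose and 31.1% fell. The balance of the family moved with the scaling: 5 were higher and 3 lower without rescaling, and 5 were higher and 6 lower with quantile normalization. Hnrnph2, a binder of G-rich tracts encoded on the X chromosome, had 45.4, 45.4 and 42.5 FPKM on day 1, against 36.8, 36.9 and 37.5 FPKM in control, and was 1.22-fold higher (1.16 to 1.29, adjusted p = 3.4e-05). Hnrnpm (chr17:33646233-33685458), which binds GU-rich sequences, had 70.4, 73.3 and 69.1 FPKM on day 1, against 58.0, 61.8 and 61.3 FPKM in control, a rise of 0.26 ± 0.0284 on the log2 scale (SE, adjusted p = 1.52e-05). Neither gene's groups overlapped. Exons of Hnrnpm overlap those of March2 on the same strand, so the reads of these genes may not be fully separated. Hnrnpk, which binds C-rich DNA and RNA, had 153, 155 and 152 FPKM on day 1, against 136, 136 and 138 FPKM in control, the tightest of these rises at 0.20 ± 0.0218 on the log2 scale (SE, adjusted p = 1.73e-05); with quantile normalization it did not pass (adjusted p = 0.108). Hnrnpc, which binds uridine tracts, rose 1.13-fold to 59.1 ± 2.11 FPKM on day 1, against 53.3 ± 1.01 FPKM in control (adjusted p = 0.000289). The related Hnrnpl and Hnrnpll, binders of CA-rich sequences, rose by 0.10 and 0.17 on the log2 scale (adjusted p = 0.0113 and 0.00317). The call of Hnrnpl was lost without rescaling (adjusted p = 0.133) and with quantile normalization (0.942). Hnrnpf and Hnrnpr rose by 0.07 and 0.11, each with an adjusted p just under the threshold (0.042 and 0.0403), and were called in 10 and 7 of 20 alternatives.

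Hnrnpa0 and Hnrnpd were the 2 hnRNP genes that fell. Hnrnpa0 (chr13:58125879-58128556), which binds AU-rich elements, had 67.3, 64.6 and 62.5 FPKM on day 1, against 77.2, 81.1 and 94.1 FPKM in control, a 1.26-fold fall (log2 change -0.34 ± 0.0633, SE, adjusted p = 0.000811) with no overlap. Hnrnpd, known as a regulator of the stability of AU-rich mRNAs, had 16.3 ± 0.773 FPKM on day 1 and 18.4 ± 0.526 FPKM in control (1.1-fold lower, adjusted p = 0.0142; 0.0613 without day 1 library 1). Hnrnph1, Hnrnph3, Hnrnpa1, Hnrnpa3, Hnrnpab, Hnrnpdl, Hnrnpul1 and Hnrnpul2 lay between -0.11 and 0.09 on the log2 scale and did not pass (adjusted p = 0.0563 to 0.671). Hnrnpa2b1, the most abundant, had 182 ± 3.76 FPKM on day 1 and 185 ± 1.89 FPKM in control, and Hnrnpu, a scaffold protein of the nucleus, had 67.8 ± 1.24 FPKM on day 1 and 68.8 ± 1.27 FPKM in control, with adjusted p of 0.799 and 0.707. With quantile normalization both were lower, by 0.16 and 0.08 on the log2 scale, with adjusted p of 0.000488 and 0.00561.

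**Figure D3:**
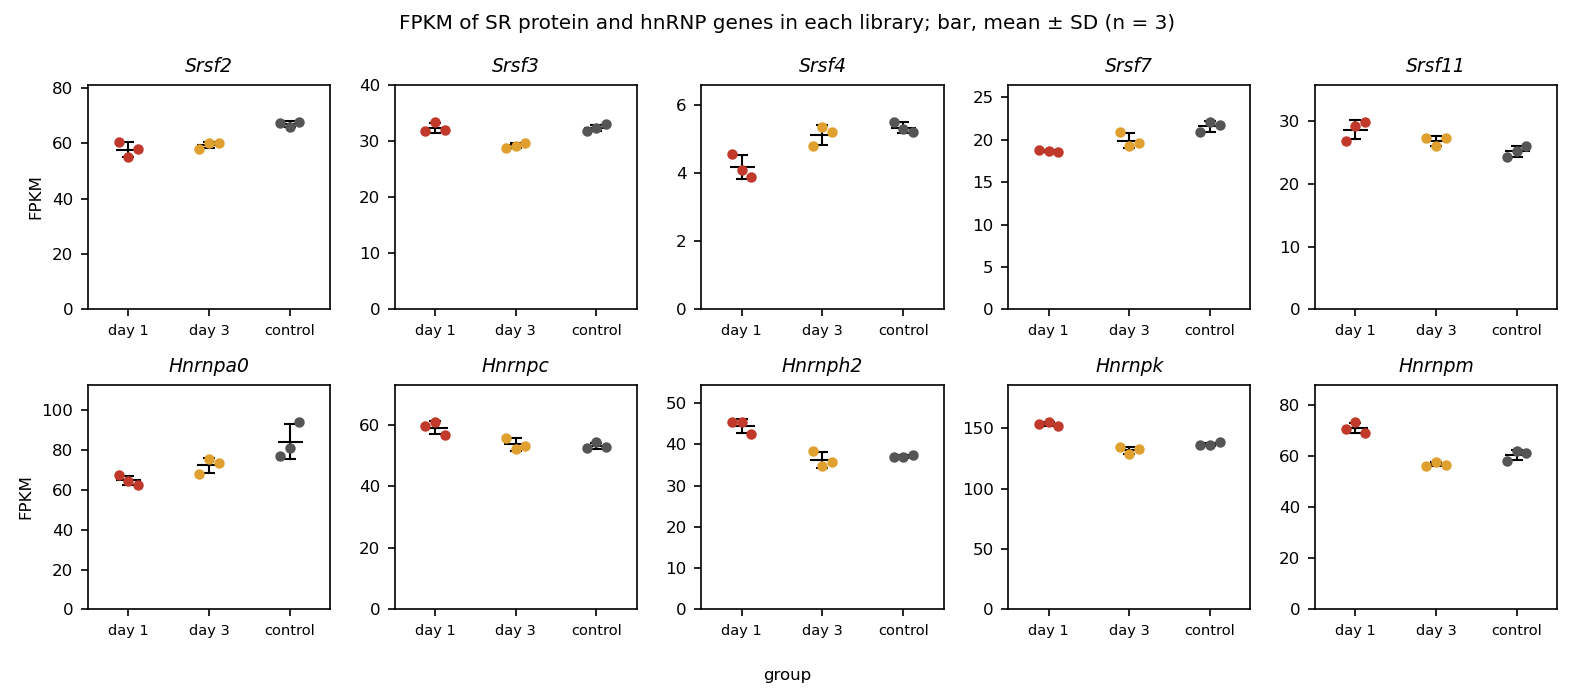
FPKM of 5 SR protein genes and 5 hnRNP genes in each library of the day 1, day 3 and control groups (points), with the group mean and SD (bars, n = 3) and each vertical axis starting at 0. Hnrnph2, Hnrnpk and Hnrnpm are high on day 1 and close together on day 3 and in control, Srsf2 is low at both days, and Srsf3 is low on day 3 alone.

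On day 3, 7 members were lower than in control and 0 were higher. All 7 belonged to 2 families: Srsf1, Srsf2, Srsf3 and Srsf9, and Hnrnpab, Hnrnpd and Hnrnpul1. The 63 members thus had 11.1% called, against 13.8% of all genes, of which 7.37% were higher and 6.45% lower. At an unadjusted p under 0.05, 3 members were higher and 16 lower, and limma-voom on reads worked out from the FPKM called 1 higher (Srsf11, adjusted p = 0.0317) and 10 lower. The log2 change was negative in 47 of the 63 members and in 6006 of all 12611 genes, and the median was -0.05, against 0.01. In 22 members (34.9%) the groups did not overlap, as in 32.6% of all genes.

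Srsf3 (chr17:29032660-29043372), the smallest SR protein and a factor in export and cell proliferation, was the one day 3 call kept by all 20 alternatives. It had 28.8, 29.1 and 29.7 FPKM on day 3, against 31.8, 32.3 and 33.0 FPKM in control. All day 3 libraries lay below control, by 1.09-fold (1.05 to 1.14, adjusted p = 0.00942). Srsf2 had 58.2, 60.2 and 60.3 FPKM on day 3, against 67.3, 65.9 and 67.8 FPKM in control, a 1.11-fold fall (1.05 to 1.18, adjusted p = 0.0246). Both days are compared with the same control libraries. Srsf1 had 27.7, 28.6 and 27.5 FPKM on day 3, against 29.4, 31.1 and 30.7 FPKM in control, 1.08-fold lower (1.03 to 1.13, adjusted p = 0.0445). Srsf9 had 38.1, 39.7 and 38.5 FPKM on day 3, against 44.0, 40.9 and 46.3 FPKM in control, 1.11-fold lower (1.04 to 1.19, adjusted p = 0.0433). After rescaling, the Srsf9 values of the 2 groups overlapped. The day 3 calls of Srsf2, Srsf1 and Srsf9 were kept by 14, 9 and 8 of 20 alternatives.

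The 3 hnRNP falls on day 3 were of like size. Hnrnpd had 15.8, 16.9 and 16.02 FPKM on day 3, against 17.8, 18.6 and 18.7 FPKM in control, 1.12-fold lower (1.05 to 1.19, adjusted p = 0.0294). Hnrnpab, a relative of Hnrnpd with a role in mRNA transport, had 85.3 ± 1.4 FPKM on day 3 and 92.2 ± 0.371 FPKM in control (1.07-fold lower, adjusted p = 0.0404). Hnrnpul1, a relative of Hnrnpu, had 46.9 ± 1.05 FPKM on day 3 and 50.8 ± 1.34 FPKM in control (1.07-fold lower, adjusted p = 0.0327). These calls lie close to the threshold: the count of lower members was 2, 3 and 1 without control library 1, 2 or 3, and 2 and 1 without day 3 library 1 or 3. No Sf3a, Sf3b, Snrp or Prpf gene was called, and for 51 of the 56 members not called the 95% interval of the fold lay within 1.2-fold of control. The farthest bound was 1.29-fold, for Snrpg (32.3 ± 2.75 FPKM on day 3 and 37.4 ± 2 FPKM in control, adjusted p = 0.122).

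Between the 2 days after exposure, 6 members were higher and 25 lower on day 3 than on day 1. These were 49.2% of the members tested, against 56.2% of all genes, of which 27.9% were higher and 28.4% lower. The log2 change was negative in 46 of the 63 members and in 6289 of all genes. Without rescaling 7 were higher and 18 lower, and with quantile normalization 10 were higher and 18 lower. The day 1 libraries are shared with the comparison above, so what follows gives day 3 and day 1 levels side by side and adds no independent support to it.

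In Hnrnp, 13 of 20 tested genes were lower and 0 higher on day 3 than on day 1 (9 lower without rescaling, 8 lower and 1 higher with quantile normalization, 13 lower and 1 higher with limma-voom). Hnrnpm had 56.2, 57.6 and 56.4 FPKM on day 3, against 70.4, 73.3 and 69.1 FPKM on day 1, the widest separation of the family at 1.26-fold lower (1.21 to 1.32, adjusted p = 3.95e-06). Hnrnph2 had 38.4, 34.7 and 35.7 FPKM on day 3, against 45.4, 45.4 and 42.5 FPKM on day 1 (1.24-fold lower, adjusted p = 3.03e-05). Hnrnpk had 134, 128 and 133 FPKM on day 3, against 153, 155 and 152 FPKM on day 1 (1.18-fold lower, adjusted p = 7.12e-06). In all 3 genes the groups stood clearly apart. Hnrnpll was 1.21-fold lower and Hnrnpr 1.13-fold lower, and Hnrnph1 and Hnrnpf, which share the G-tract preference of Hnrnph2, were 1.12-fold and 1.1-fold lower. Hnrnpa2b1, Hnrnpab, Hnrnpu and Hnrnpul1 were lower by 0.06 to 0.09 on the log2 scale (adjusted p = 0.0186 to 0.0273). With quantile normalization Hnrnpa2b1 and Hnrnpu had the other sign, 0.05 and 0.01, and were not called.

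In Snrp, 5 of 11 were lower on day 3 than on day 1 and 0 higher. Snrpf, an Sm ring gene, had 10.1, 9.10 and 11.8 FPKM on day 3, against 12.1, 14.6 and 12.7 FPKM on day 1. Its groups did not overlap, and at 1.28-fold (1.12 to 1.48, adjusted p = 0.00624) it had the largest change of this comparison and the widest interval. Snrpb2, Snrpe and Snrpd1 were 1.25-fold, 1.23-fold and 1.17-fold lower (adjusted p = 0.000605, 0.000566 and 0.00221), with day 3 means of 18.3 ± 0.944, 43.0 ± 2.03 and 28.9 ± 1.81 FPKM. Snrpc was 1.1-fold lower (adjusted p = 0.0384). Snrpg had 32.3 ± 2.75 FPKM on day 3 and 30.9 ± 3.15 FPKM on day 1 (adjusted p = 0.616).

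The genes that were higher on day 3 than on day 1 were Srsf4, Sf3a2, Sf3b2, Prpf4, Prpf19 and Prpf40b. Prpf40b had 11.4, 11.3 and 10.8 FPKM on day 3, against 8.80, 9.14 and 8.83 FPKM on day 1, 1.23-fold higher (1.16 to 1.31, adjusted p = 6.37e-05). On day 3 Prpf40b differed from control by 0.01 on the log2 scale, with an adjusted p of 0.927. Sf3a2 had 17.1, 19.7 and 18.4 FPKM on day 3, against 14.5, 14.6 and 15.2 FPKM on day 1 (1.23-fold higher, adjusted p = 0.00113), and Sf3a1 was 1.07-fold lower (adjusted p = 0.0297). Srsf4 was 1.21-fold higher (adjusted p = 0.00609), at 5.11 ± 0.283 FPKM on day 3 and 4.17 ± 0.359 FPKM on day 1. Prpf4, part of the U4/U6 particle, had 4.82 ± 0.32 FPKM on day 3 and 4.19 ± 0.102 FPKM on day 1 (1.13-fold higher, adjusted p = 0.0255). Srsf3 and Srsf1 were 1.12-fold and 1.1-fold lower (adjusted p = 0.00041 and 0.00282), and Srsf2 had 59.5 ± 1.19 FPKM on day 3 and 57.8 ± 2.67 FPKM on day 1 (adjusted p = 0.566).

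**Figure D4:**
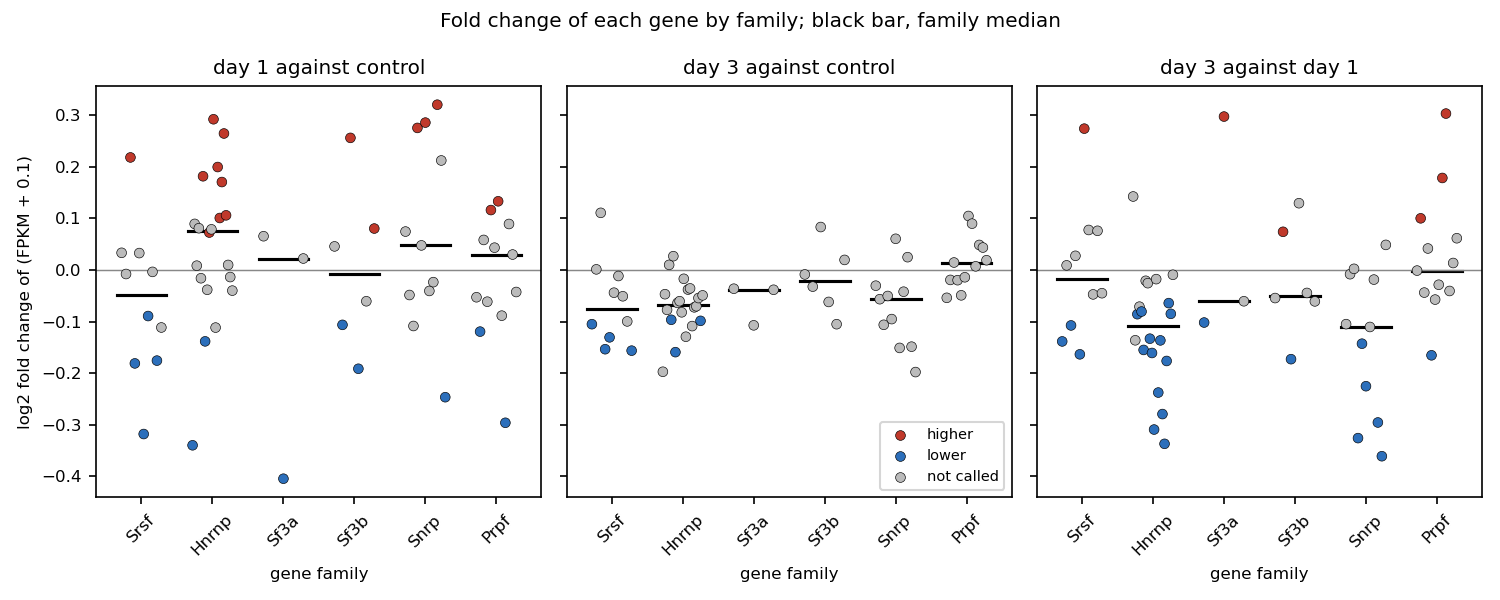
Log2 fold change of (FPKM + 0.1) after rescaling for 62 of the tested genes (points) by family, in the 3 comparisons, with the median of all tested genes of a family as a black bar; red points were called higher, blue points lower and grey points were not called. Points lie on both sides of 0 in every family on day 1, sit between -0.2 and 0.11 on day 3, and lie mostly below 0 for Hnrnp and Snrp between the days.

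Set side by side, the families had different balances of calls, though no test was made of a difference between families. On day 1, calls higher and lower were 1 and 4 of 10 in Srsf, 8 and 2 of 20 in Hnrnp, 0 and 1 of 3 in Sf3a, 2 and 2 of 6 in Sf3b, 3 and 1 of 11 in Snrp, and 3 and 2 of 13 in Prpf. Over all genes, 31.1% were higher and 31.1% lower. The shares were 10.0% and 40.0% in Srsf, 40.0% and 10.0% in Hnrnp, and 33.3% and 33.3% in Sf3b. They were 27.3% and 9.09% in Snrp, and 23.1% and 15.4% in Prpf. The median absolute change lay between 0.0655 (Sf3a) and 0.108 (Snrp) in every family, under the 0.19 of all genes. The signed median was -0.05 in Srsf, 0.08 in Hnrnp and 0.05 in Snrp on day 1, and that of Hnrnp was 0.04 without rescaling and -0.000772 with quantile normalization. The Srsf median was -0.08 on day 3. Without rescaling it was -0.08 on day 1 and -0.09 on day 3, and with quantile normalization -0.10 on day 1 and -0.09 on day 3. With no filter, or with a mean of at least 5 FPKM, the day 1 median of Srsf was -0.00774, close to 0. Summed over the family, Srsf genes had 389, 398 and 385 FPKM on day 1, 394, 394 and 390 FPKM on day 3, and 410, 413 and 425 FPKM in control. Both treated groups lay below control. Hnrnp genes summed to 1118, 1128 and 1092 FPKM on day 1, 1038, 1024 and 1032 FPKM on day 3, and 1077, 1100 and 1111 FPKM in control, so that day 3 was the lowest and day 1 overlapped control. After rescaling, the Hnrnp sums of day 1 lay above those of control, at 1119 to 1128 FPKM on day 1 and 1079 to 1090 FPKM in control. Snrp genes summed to 415 ± 10.6 FPKM on day 1, 387 ± 11.6 on day 3 and 413 ± 7.27 in control. After rescaling these sums were 415 to 427 FPKM on day 1 and 406 to 411 FPKM in control, without overlap. Prpf genes summed to 223 ± 0.392 FPKM on day 1, 226 ± 3.56 on day 3 and 227 ± 2.43 in control.

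**Figure D5:**
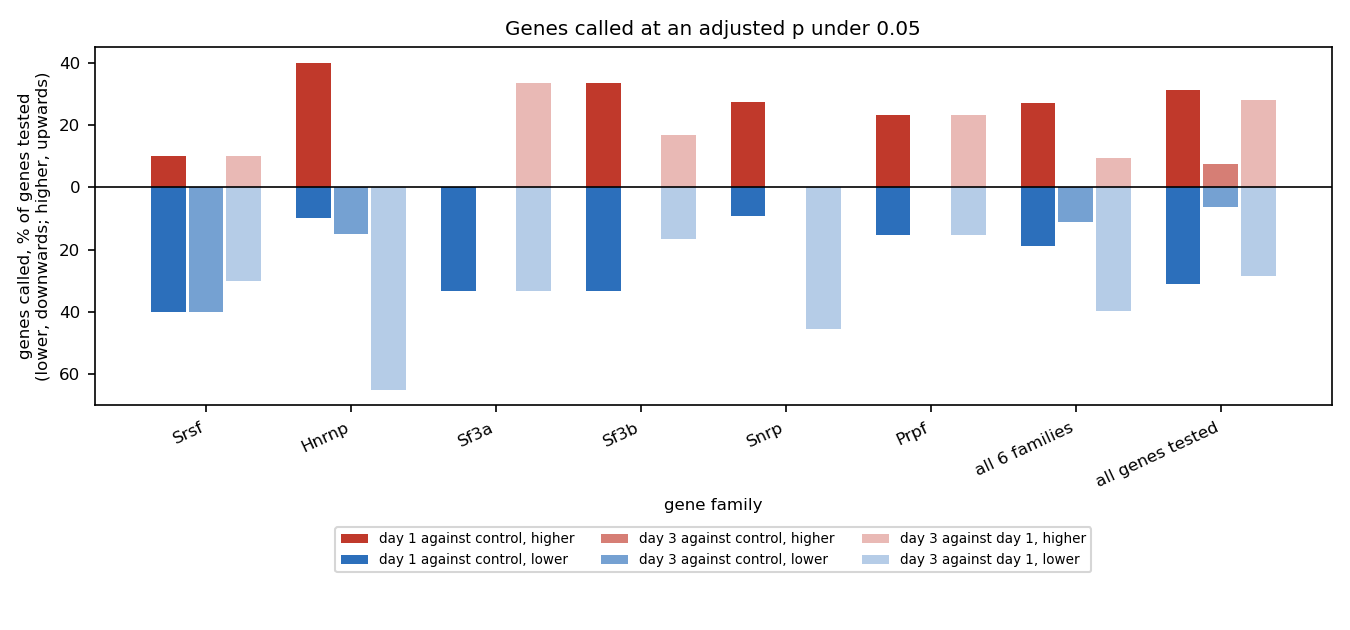
Share of tested genes called higher (red, upwards) or lower (blue, downwards) in each family, in all 6 families and in all genes tested, for the 3 comparisons from left to right within each cluster (day 1 against control darkest, day 3 against day 1 palest). Hnrnp has its calls upwards on day 1 (40.0% higher, 10.0% lower) and all downwards between the days (13 of 20 genes), Srsf has more calls downwards, and on day 3 against control no family has a call upwards.

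The families also differ in a property of their genes that these data did not choose. In the GENCODE M21 annotation, 9 of 10 tested Srsf genes (90.0%) have at least 1 transcript of the nonsense-mediated decay type, against 10 of 20 Hnrnp, 7 of 13 Prpf, 4 of 11 Snrp, 1 of 6 Sf3b and 0 of 3 Sf3a genes. Over all 63 members it was 49.2%, against 29.2% of 11900 tested protein-coding genes, and a transcript with a retained intron was annotated for 74.6% of members, against 60.3%. The median number of annotated transcripts was 7.5 in Srsf, 8 in Hnrnp and Prpf, 5 in Sf3b and Snrp and 4 in Sf3a. Over the tested protein-coding genes it was 5, and whether the shares go with these numbers was not tested. On day 1, 8 genes rose and 6 fell among the 31 members with a decay transcript, and 9 rose and 6 fell among the 32 without. Over all genes, 31.1% were higher and 31.1% lower. On day 3, 5 of the 31 and 2 of the 32 were lower, beside 6.45% of all genes, and these 7 calls numbered 1 to 9 with a library left out. Between the days, 2 were higher and 11 lower among the 31, and 4 were higher and 14 lower among the 32. Over all genes, these shares were 27.9% higher and 28.4% lower. The deposited values are totals per gene, so the share of each transcript form was not analysed here.

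Other genes of the pathway, taken from lists of factors with other names, also moved in both directions on day 1. Beside the counts that follow, 31.1% of all genes tested were higher and 31.1% lower, and nothing particular to a list is read from them. Of 16 SR-related proteins and SR kinases tested, 3 rose and 6 fell. The largest of these were a rise of the SR kinase Dyrk1a, with 23.0 ± 0.132 FPKM on day 1 and 19.5 ± 0.357 FPKM in control, and a fall of the speckle scaffold Srrm2, with 57.1 ± 0.838 FPKM on day 1 and 71.5 ± 3.35 FPKM in control (adjusted p = 4.32e-05 and 1.52e-05). Of 14 further U1, U2 and U2AF proteins, 3 rose and 6 fell. Snrnp70, a U1 protein that binds U1 snRNA, fell 1.3-fold to 51.4 ± 3.06 FPKM on day 1, against 68.4 ± 2.27 FPKM in control (adjusted p = 8.12e-05), and the helicase Dhx15 was 1.18-fold higher (adjusted p = 7.14e-05). Of 22 further tri-snRNP and Prp19 complex proteins, 7 rose and 5 fell, with Bud31 at the top (1.28-fold higher, at 39.7 ± 1.34 FPKM on day 1 and 31.8 ± 0.483 FPKM in control, adjusted p = 6.36e-06) and Xab2 at the bottom (1.19-fold lower, adjusted p = 0.000491). Of 11 LSm genes, 2 rose and 1 fell, with Lsm5 1.16-fold higher (adjusted p = 0.0127) and Lsm7 1.26-fold lower (adjusted p = 0.000145). The 11 include the genes of the LSm ring that binds U6 snRNA, a relative of the Sm ring, but are not limited to it. In the SMN complex and its partners, which load Sm rings onto snRNAs, 2 of 13 rose and 2 fell. Gemin6 was 1.19-fold higher (adjusted p = 0.044), and Coil, the marker protein of Cajal bodies, 1.3-fold lower (adjusted p = 0.000129).

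In the minor spliceosome 3 of 9 rose and 2 fell, with Snrnp35 at 5.24 ± 0.285 FPKM on day 1 and 7.6 ± 0.412 FPKM in control, 1.41-fold lower (adjusted p = 2.62e-05), and Zrsr2 1.17-fold higher (adjusted p = 0.00206). Of 15 exon junction complex and nonsense-mediated decay genes, 3 rose and 7 fell, among them the decay helicase Upf1, 1.19-fold lower (adjusted p = 0.000133), and Smg8, 1.22-fold higher (adjusted p = 0.00028). Of the other RNA-binding regulators of splicing, 19 of 32 rose and 5 fell on day 1, beside the same 31.1% each way of all genes. Rbfox1, a regulator best known in neurons and muscle, had 1.91 ± 0.188 FPKM on day 1 and 0.789 ± 0.0844 FPKM in control, 2.3-fold higher (adjusted p = 1.35e-05). Its mean was under 1 FPKM both in control and on day 3 (0.985 FPKM). It therefore passed the filter on low values only through its day 1 level, and nothing is read from its calls. Nova1, also known from neurons, had 3.43 ± 0.0737 FPKM on day 1 and 5.12 ± 0.224 FPKM in control, 1.45-fold lower (adjusted p = 1.27e-05). On day 3, when 7.37% of all genes were higher and 6.45% lower, the 8 lists had 2 genes higher and 8 lower than control in all: Srpk1 (1.1-fold) and Rbfox2 (1.12-fold) were the rises, and Lsm7, Coil, U2af2 and 5 RNA-binding regulators, led by Nova2, the falls.

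Between the days, 27.9% of all genes were higher and 28.4% lower. Of the lists, 20 of the 32 RNA-binding regulators were lower on day 3 than on day 1 and 4 higher, with Rbfox1 at 0.985 ± 0.0822 FPKM on day 3 and 1.91 ± 0.188 FPKM on day 1 (1.87-fold lower, adjusted p = 0.000149) and Nova1 1.26-fold higher (adjusted p = 0.000461). As said above, Rbfox1 was tested only through its day 1 level. Of the U1, U2 and U2AF proteins 5 of 14 were higher and 4 lower, with Snrnp70 at 70.1 ± 4.32 FPKM on day 3 and 51.4 ± 3.06 FPKM on day 1 (1.35-fold higher, adjusted p = 4.47e-05) and Dhx15 1.13-fold lower (adjusted p = 0.000884). Of the SR-related genes 6 of 16 were higher and 3 lower, with Srrm2 1.28-fold higher (adjusted p = 5.51e-06) and Dyrk1a 1.2-fold lower (adjusted p = 8.31e-05). Of the tri-snRNP and Prp19 complex genes 4 of 22 were higher and 6 lower, led by Xab2 (1.12-fold higher, adjusted p = 0.00753) and Bud31 (1.24-fold lower, adjusted p = 2.21e-05). Of the LSm genes 3 of 11 were lower and 0 higher, with Lsm5 1.26-fold lower (adjusted p = 0.000901). In the SMN list 1 of 13 was higher (Coil, 1.1-fold, adjusted p = 0.0459) and 1 lower (Strap, 1.14-fold, adjusted p = 0.000231). Minor spliceosome genes split into 2 of 9 higher, with Snrnp35 1.32-fold higher (adjusted p = 0.000155), and 4 lower, with Snrnp25 1.27-fold lower (adjusted p = 0.00111). Of the exon junction and decay genes 4 of 15 were higher, with Smg1 1.22-fold higher (adjusted p = 0.000377), and 3 lower, with Magohb 1.22-fold lower (adjusted p = 0.038).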

How the data were processed

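Polyadenylated RNA was sequenced in 9 libraries, 3 per group; per the labels' protocols, RNA came from an RNeasy kit and libraries from the NEBNext Ultra RNA kit. The authors deposited FPKM, scaled by gene length and library total for each library separately. The submitters' processing notes name the builds GRCm38 and mm10 and the tools STAR 2.7.3a, cutadapt 2.6, FastQC 0.12.1 and DESeq2. The sources used here do not give the counter, the gene annotation, or how strand and reads matching several places were treated. For all 20350 genes above 0 the FPKM gave back whole reads to within 0.01 read, and these reads served an alternative only.

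Libraries were put on a common scale by median-of-ratios factors (0.976 to 1.02), a gene needed a mean of 1 FPKM or more to be tested, and log2(FPKM + 0.1) was fitted over all 9 libraries with group as the only term (limma 3.58.1, R 4.3.3, variance trend on). Fold changes are on that log2(FPKM + 0.1) scale, which understates the change of low genes, while levels are FPKM as deposited with SD over 3 libraries. Tests were two-sided and adjusted by Benjamini-Hochberg over the 12611 genes. Intervals of folds are 95% intervals from the same fit. The fit was checked on simulated data in which most genes did not change. On day 1, 62.2% of genes were called, so that check does not cover the rescaling between libraries. Replicates differed by more than sampling noise, with chi-square values of 1.75 to 4.76 per degree of freedom, so no library was merged with another. A tested member rested on 173 to 20185 reads in a library.

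Members were found by symbol. The members and gene lists were chosen with earlier results of these data known, so no test of a list or family was made. The genes named are, per family and comparison, the largest called rise and fall with groups that do not overlap, and a set of members named whatever their values; other members are named after their values were seen. The values of 1 member are not reported here, though it is included in the fit and in the counts and sums. Of each list, the largest called rise and fall are named. Alternatives covered the pseudocount (1 and 0.01), the filter (none, and a mean of 5 FPKM), the scaling, the libraries in the fit, a replicate block, a threshold of 0.01, limma-voom on the reads, the 2 libraries with the highest Rn45s share, and each library left out in turn. Coordinates and promoters are from RefSeq for GRCm38.p6, and transcript types from GENCODE M21. Figures were drawn with matplotlib 3.10.9.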

Additional observations from a re-analysis of the deposited data

Results flagged for a closer look

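The day 3 and day 1 groups carry the same exposure and share a control, so a member called between them differed from control by unlike amounts. They were harvested 24 h and 72 h after the wash, and the control has no stated harvest time. Time since exposure and time in culture therefore cannot be told apart. Such a call was made for 31 members. Values given here are log2 fold changes of day 3 against day 1, with an adjusted p under 0.05 by limma. Their causes were not tested.

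In Hnrnp the 13 values were all negative: Hnrnpm -0.337, Hnrnph2 -0.309, Hnrnpll -0.279, Hnrnpk -0.238, Hnrnpr -0.176, Hnrnph1 -0.161, Hnrnpc -0.155, Hnrnpl -0.136, Hnrnpf -0.133, Hnrnpa2b1 -0.0856, Hnrnpul1 -0.0849, Hnrnpab -0.0805 and Hnrnpu -0.0641. In Snrp the 5 values were Snrpf -0.361, Snrpb2 -0.326, Snrpe -0.296, Snrpd1 -0.225 and Snrpc -0.143. In Srsf 3 genes were negative, Srsf3 at -0.163, Srsf1 at -0.138 and Srsf11 at -0.107, and Srsf4 was positive at 0.274. In the U2 subcomplexes, Sf3a2 (0.297) and Sf3b2 (0.0741) were positive, and Sf3b3 (-0.173) and Sf3a1 (-0.102) negative. In Prpf, Prpf40b (0.303), Prpf4 (0.178) and Prpf19 (0.100) were positive, and Prpf38a (-0.165) was negative. Srsf11, Sf3a1, Snrpc, Hnrnpab, Hnrnpu, Prpf4 and Hnrnpa2b1 were called in 6, 12, 11, 11, 12, 13 and 14 of the alternatives tried (20 each, 19 for Prpf4).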

How the results depend on the processing

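On day 1, 10 of the 17 rises and 9 of the 12 falls were called in every alternative, on day 3 only Srsf3 of the 7 falls was, and between the days 4 of 6 higher and 16 of 25 lower members were. Day 1 rises numbered 11 both without rescaling and at a threshold of 0.01, and day 1 falls 20 with quantile normalization. Day 3 against control, 1 member was higher with limma-voom, and 4 were lower with no filter and 1 at the threshold of 0.01. Between the days, 10 were higher with quantile normalization. With that normalization Hnrnpa2b1 and Hnrnpu turned to -0.159 and -0.0844 on day 1 and to 0.0505 and 0.0133 between the days; the cause was not tested.

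With each library left out in turn, day 1 rises ranged from 13 to 17 and falls from 9 to 13. Against control, day 3 gave 0 to 1 higher (1, Srsf11, without day 1 library 1) and 1 to 9 lower. Between the days there were 4 to 7 higher and 18 to 24 lower. Leaving out the 2 libraries with the highest Rn45s share (control 1 and day 3 library 2) gave 13 higher and 12 lower on day 1, 0 and 5 on day 3, and 5 and 22 between the days.

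No pairing by replicate number was seen. Deviations from the group means of same-numbered libraries correlated from -0.0790 to 0.111, and those of differently numbered libraries from -0.149 to 0.147. With 3 libraries a group, this check cannot exclude a pairing. With a replicate block, 17 members were higher and 13 lower on day 1, 0 and 6 on day 3, and 7 and 26 between the days.

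The standard error of a member's log2 change ran from 0.0213 to 0.091, with 3 libraries a group. Of the members not called, the 95% interval lay within 1.2-fold for 33 of 34 on day 1, 51 of 56 on day 3 and 30 of 32 between the days.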
